A study of Mus musculus with 4 samples.

Results

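Cluster 0 of the splenic monocyte, macrophage and dendritic cell bundle was the largest of the 17 RNA clusters deposited for the bundle after GM-CSF, and its cells carried the surface lectin CD301b. Its members were chosen by the deposited cluster number alone, which gave 682 of the 6075 bundle cells, 668 from GM-CSF-treated mice and 14 from mice in steady state, out of 11631 CD11b+ splenocytes in all. The cells came from a CITE-seq experiment, in which antibodies with DNA tags are counted in the same droplet as the RNA of a cell. There was 1 library of CD11b+ splenocytes in steady state, from mice without cytokine, and 1 library from mice in the GM-conditioned state, which had 3 once-daily subcutaneous injections of 10 µg GM-CSF and were taken 24 hours after the last. The strain and number of mice of these 2 libraries are not given in the sources used here. The wild-type mice of the study were C57BL/6, and its methods give an age range of young adults for all mice. Both libraries were sorted for CD11b, so splenocytes without this integrin were not sampled. With 1 library per condition the effect of GM-CSF and the effect of the library cannot be told apart, cells were not treated as replicates, and no test was made between conditions or clusters. Cluster 0 was set beside clusters 1 (577 GM-CSF-treated cells) and 3 (512 cells), which lay next to it.

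GM-CSF is a cytokine that drives the growth and differentiation of myeloid cells through a receptor with a private alpha chain and a shared beta chain, which signals through JAK2 and STAT5. Monocytes exposed to it take up features of dendritic cells (DCs), the cells that present antigen to naive T cells, with more CD11c and MHC class II at the surface. CD301b, the product of Mgl2, and CD209a, a mouse relative of DC-SIGN, are C-type lectins that bind sugars on antigens, and both are known as markers of DC subsets associated with type 2 immunity. CD115 is the receptor for M-CSF and marks the monocyte lineage.

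The 668 GM-CSF-treated cells of cluster 0 held 4632231 unique molecular identifiers (UMIs, each counting 1 captured RNA molecule), against 3448700 in cluster 1 and 3396439 in cluster 3. The median cell had 6827.5 UMIs in cluster 0 (2392 to 19495), 5872 in cluster 1 and 6440 in cluster 3, and the median share of mitochondrial UMIs in cluster 0 was 4.01%. None of the 682 cells was called a doublet by Scrublet, which called 186 of the 6804 GM-CSF-treated cells (2.73%) and 152 of the 4827 steady-state cells (3.15%). Cell barcodes occurring in both libraries numbered 3 in the bundle and 8 in all cells. One cell of cluster 0 held 1877 of the 1891 haemoglobin UMIs of the cluster, and genes with over 50% of the UMIs of either group in 1 cell were left out of the ranked genes below.

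Cluster 0 made up 16.95% of the GM-CSF-treated bundle cells (668 of 3940, 95% interval 15.8 to 18.2%) and 0.656% of the steady-state bundle cells (14 of 2135, 0.359 to 1.10%). Of all CD11b+ cells the shares were 9.82% (9.12 to 10.5%) after GM-CSF and 0.290% (0.159 to 0.486%) in steady state. Clusters 1 and 3 held 14.6% and 12.995% of the GM-CSF-treated bundle cells. In the earlier clustering of all CD11b+ cells, which the authors also deposited, 649 of the 668 cells lay in the cluster MoMacDC_c2 and 19 in MoMacDC_c1. Intervals are exact at the 95% level and cover counting error only, not the spread between mice. Those of RNA levels and their ratios treat each UMI as independent and so also leave out the spread between cells.

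The antibody tags were not used to make the clusters, so they are a readout independent of the choice of cells. The CD301b tag had a median of 187 counts per cell in cluster 0 (quartiles 64 and 454.5, range 1 to 4040), 103.5 in cluster 3 (29.75 and 281) and 11 in cluster 1 (7 and 26). This median was the highest of the 13 clusters with at least 50 GM-CSF-treated cells, ahead of clusters 3, 11 (39 counts) and 8 (26 counts). Granulocytes, which should lack CD301b, had a median of 4 counts, and 95% of them had at most 11. Above that level lay 93.3% of the cells of cluster 0 (623 of 668, 91.09 to 95.04%), 87.1% of cluster 3 and 48.7% of cluster 1. The quartile ranges of clusters 0 and 3 overlapped, those of clusters 0 and 1 did not. When 1 cell of each was paired at random, the cell of cluster 0 had more CD301b tag in 88.1% of pairs with cluster 1 and in 61.3% of pairs with cluster 3.

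**Figure D1:**
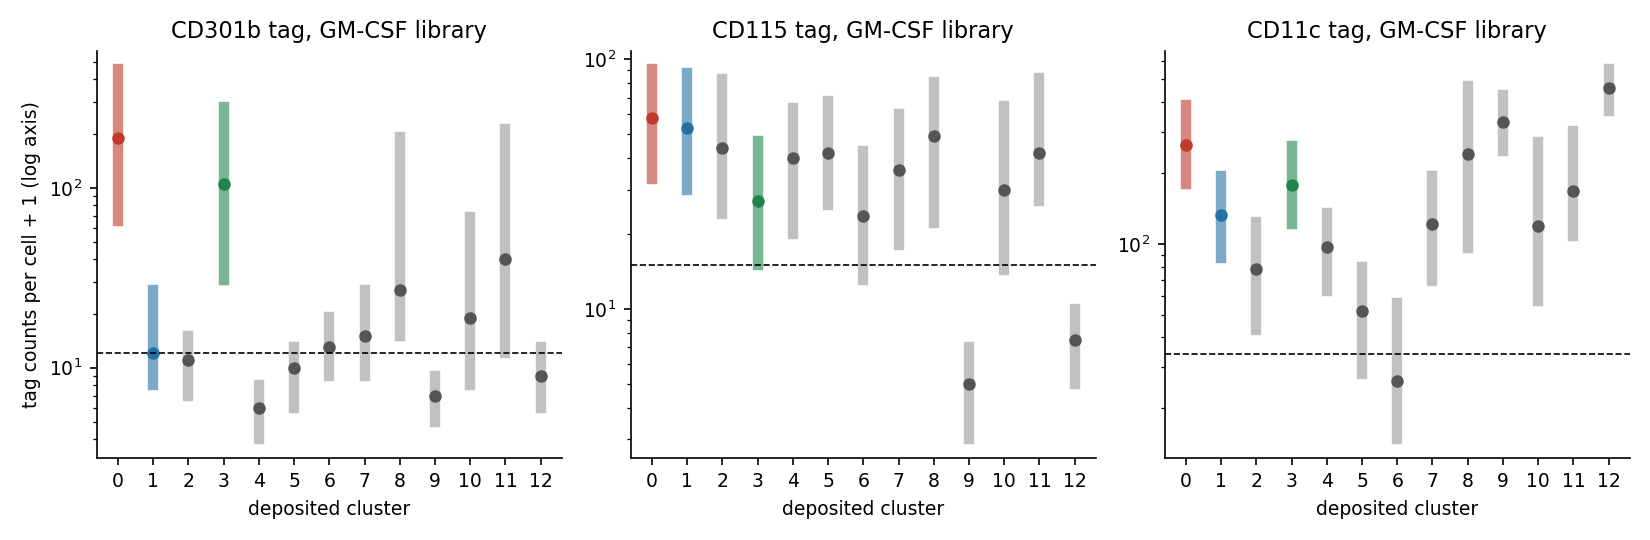
CD301b, CD115 and CD11c tag counts per cell plus 1 (log axes) in the 13 clusters of at least 50 GM-CSF-treated cells: points are medians, bars span the quartiles, and the dashed line is the level that 95% of granulocytes did not exceed. Cluster 0 (red) had the highest CD301b and CD115 medians, 187 and 57 counts, and cluster 3 (green) came second for CD301b with a CD115 median of 26 counts.

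The CD115 tag also had its highest median in cluster 0, at 57 counts (quartiles 32 and 90), close to the 52 of cluster 1 and above the 26 of cluster 3. Cells of cluster 0 had more CD115 tag in 52.6% of pairs with cluster 1 and in 75.1% of pairs with cluster 3. CD11c, the integrin used to identify DCs, had a median of 263 counts, against 131 in cluster 1 and 176.5 in cluster 3, and was higher in cluster 0 in 79.7% and 68.2% of pairs. Clusters 12 and 9, which had the most Flt3 RNA, had higher CD11c medians, 459 and 329 counts. MHC class II, which presents antigen to CD4+ T cells, had a median of 399.5 counts, near the 393 of cluster 3 and above the 271 of cluster 1. The Ly6C tag, a mark of classical monocytes, was low at a median of 15 counts, and 2 of 668 cells passed the level of 165.5 that 95% of granulocytes did not exceed. The granulocytes carried more Ly6C tag than cluster 0 themselves, so this level is not a background for the tag. Scaled to the sum of the 5 tags in a cell, the CD115 and MHC class II orders against cluster 1 turned round, with cluster 0 higher in 27.5% and 34.5% of pairs, and CD11c was near level, at 50.6% of pairs with cluster 1 and 54.6% with cluster 3. CD301b stayed higher than in cluster 1 in 83.6%. Against cluster 3, MHC class II turned to 36.6% and Ly6C, higher in 58% of pairs as raw counts, to 41.3%.

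The order of a tag and the order of its gene were not the same for all 3 receptors. Mgl2 RNA and CD301b tag both ranked first in cluster 0 among the 13 clusters. Itgax, the gene of CD11c, ranked first in cluster 0 at 396 CPM (the UMIs of a gene over the cells of a group, scaled to 1000000 UMIs in all), where the tag was the third highest. Csf1r, the gene of CD115, was the sixth highest at 204 CPM, although the CD115 tag ranked first. In cluster 4, whose cells had the highest Csf1r level, 654 CPM, the median CD115 tag was 39 counts.

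The authors also gated CD115hi cells into subsets on the tags alone: P-I (Ly6C+), P-II (Ly6C- MHCII-), P-III (Ly6C- MHCII+ CD301b-) and P-IV (Ly6C- MHCII+ CD301b+), the last being their GM-CSF-induced DCs. In cluster 0, 167 of 668 cells were P-IV (25%, 21.8 to 28.5%), 20 were P-III (2.99%), 1 fell outside the named gates, and 480 were CD115- (71.9%, 68.3 to 75.2%). P-I and P-II each had 0 of 668 cells, which allows a share of up to 0.551% (the upper limit of the exact interval). Among the 188 CD115hi cells of cluster 0 the P-IV share was 88.8% (83.4 to 93.0%), against 26.5% (41 of 155, 19.7 to 34.1%) in cluster 1 and 71.4% (15 of 21, 47.8 to 88.7%) in cluster 3, whose interval overlapped that of cluster 0. Cluster 0 held 53.4% of the 313 P-IV cells of the library (47.7 to 59.0%). The next highest number of P-IV cells was 47 in cluster 8, followed by 41 in cluster 1, 20 in cluster 10 and 15 each in clusters 3 and 7.

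**Figure D2:**
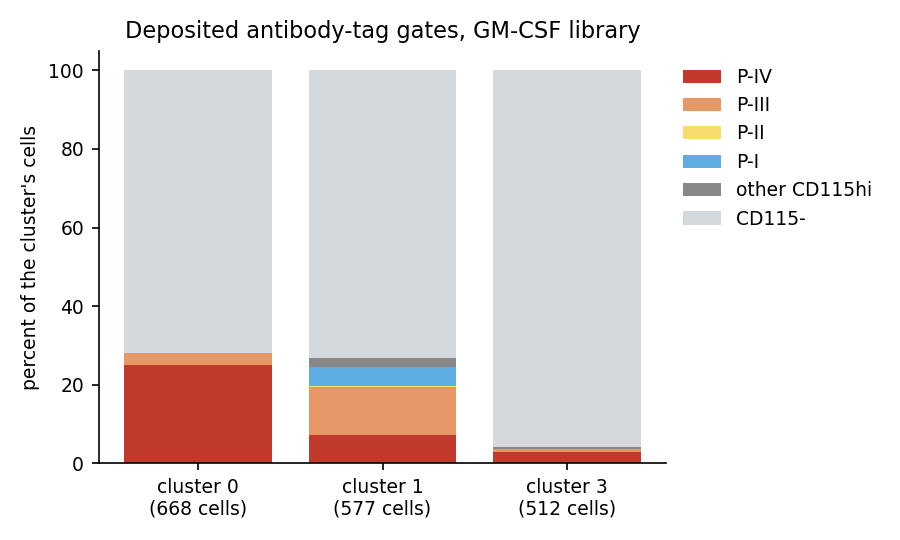
Share of GM-CSF-treated cells in each deposited tag gate, in percent of the cells of clusters 0, 1 and 3. P-IV cells made up 25% of cluster 0, 7.11% of cluster 1 and 2.93% of cluster 3, and CD115- cells were the largest class in each.

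Most cells of cluster 0 with more than 11 CD301b counts, the granulocyte level, were gated as CD115- and so lay outside the P-IV gate. This level is lower than the authors' CD301b gate. In cluster 0 the P-IV cells had at least 21 CD301b counts, and the P-III cells, gated as CD301b-, had up to 19. Of the 480 CD115- cells, 449 (93.5%, 91.0 to 95.6%) had more CD301b tag than 95% of granulocytes, with a median of 165 counts against 331 in the P-IV cells. The median CD115 tag was 44 counts in the CD115- cells (1 to 83) and 112 in the P-IV cells (84 to 285), on either side of the gate. Csf1r RNA stood at 209 CPM in the P-IV cells and 201 CPM in the CD115- cells, a ratio of 1.04 (0.893 to 1.20). Mgl2 stood at 591 and 523 CPM, a ratio of 1.13 (1.03 to 1.23), and Cd209a at 502 and 452 CPM, a ratio of 1.11 (1.01 to 1.22). P-IV and CD115- cells of cluster 0 therefore had close levels of these 3 RNAs. The CD115 tag differed by the gate itself, and both groups were drawn from the same RNA cluster. Other RNAs were further apart: Ccr2 had a ratio of 1.39 (1.27 to 1.52) and Fn1 of 1.44 (1.18 to 1.75), while Clec10a had 0.679 (0.557 to 0.819). The 20 P-III cells, gated for low CD301b, had a median of 9.5 CD301b counts and 32.5 CPM of Mgl2 (4 UMIs).

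The clusters were made from RNA, so all RNA differences between clusters below are descriptions of how the clusters were drawn, with no test. Mgl2, on chromosome 11, had 2442 UMIs in cluster 0, or 527 CPM, against 110 CPM in cluster 1 and 513 CPM in cluster 3. Its level was 4.80 times that of cluster 1 (4.31 to 5.37) and 1.03 times that of cluster 3 (0.965 to 1.09), and the other 10 clusters lay between 0 and 255 CPM. Cd209a, on chromosome 8, had 456 CPM in cluster 0, 78.0 CPM in cluster 1 and 647 CPM in cluster 3, with ratios of 5.84 (5.15 to 6.67) and 0.706 (0.664 to 0.749). Both markers were thus highest in clusters 0 and 3, with Mgl2 about level and Cd209a lower in cluster 0.

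A Mgl2 UMI was found in 80.1% of the cells of cluster 0 (76.9 to 83.1%, median depth 6827.5 UMIs), 26.7% of cluster 1 and 79.7% of cluster 3. In neutrophils, which should lack it, the share was 2.91% at a median depth of 4404 UMIs. With every cell thinned to 1000 UMIs the shares were 36.5% in cluster 0, 8.84% in cluster 1, 34.2% in cluster 3 and 0.455% in neutrophils, where 13 cells were too shallow. A Cd209a UMI was found in 62.4% of the cells of cluster 0, 16.3% of cluster 1, 77.7% of cluster 3 and 0.784% of neutrophils, and after thinning in 32.6%, 5.89%, 40.6% and 0.227%. Both RNAs were detected in 366 cells of cluster 0, Mgl2 alone in 169, Cd209a alone in 51 and neither in 82. The label of a CD301b-rich cluster held for the GM-CSF-treated members by tag. Mgl2 RNA is no independent evidence for the label, as the clusters were made from RNA, and its share of cells was about level in cluster 3.

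The bases before the start of Mgl2, Cd209a and Ccl17 are shown: both lectin markers, and the gene that most exceeded every other cluster (below). Both lectin RNAs were also high in a neighbouring cluster (above), Cd209a more so than in cluster 0. Joint detection of Ccl17 with the lectin RNAs was not tested. Sequences are from RefSeq on GRCm38.p6, 5′ to 3′ on the strand of the gene, up to the first base of the gene in GENCODE on the same build. Mgl2 spans chr11:70130329-70137550 on the plus strand, Cd209a chr8:3743397-3748984 on the minus strand and Ccl17 chr8:94810453-94812036 on the plus strand, and the windows are chr11:70130107-70130328, chr8:3748985-3749234 and chr8:94810203-94810452. Capitals mark matches, on either strand, to TTCNNNGAA, the core letters bound by STAT5 and other STAT proteins, or AGGAAGT, core letters bound by PU.1, the myeloid factor encoded by Spi1.
Mgl2: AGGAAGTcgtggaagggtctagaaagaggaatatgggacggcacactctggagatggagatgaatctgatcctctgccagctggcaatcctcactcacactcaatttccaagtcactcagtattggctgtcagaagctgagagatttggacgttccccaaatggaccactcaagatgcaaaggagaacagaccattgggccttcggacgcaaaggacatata
Cd209a: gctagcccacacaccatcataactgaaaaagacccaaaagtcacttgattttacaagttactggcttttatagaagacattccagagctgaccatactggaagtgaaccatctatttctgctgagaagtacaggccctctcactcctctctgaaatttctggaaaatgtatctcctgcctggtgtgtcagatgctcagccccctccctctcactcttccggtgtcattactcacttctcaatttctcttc
Ccl17: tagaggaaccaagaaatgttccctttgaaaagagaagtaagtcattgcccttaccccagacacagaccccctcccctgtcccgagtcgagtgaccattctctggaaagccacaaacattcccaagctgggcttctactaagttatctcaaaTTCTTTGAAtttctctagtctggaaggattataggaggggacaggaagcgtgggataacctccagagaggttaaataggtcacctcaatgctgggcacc
The window of Ccl17 had 1 TTCNNNGAA match, which reads the same pattern on both strands, 99 bases before the RefSeq start. The window of Mgl2 had AGGAAGT at its far end, 250 bases before the RefSeq start, and that of Cd209a had neither set of letters. Of 32851 RefSeq windows of 250 bases before a gene start, 7.02% held TTCNNNGAA and 7.69% held AGGAAGT, and the motifs do not overlap each other in these windows. A match is a description of letters and was not tested as a binding site.

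Against cluster 1, 160 of 8301 genes with at least 50 UMIs over both sums (1.93%) were at least 2-fold higher in cluster 0 and 162 (1.95%) at least 2-fold lower. Ccl17, a chemokine that draws CCR4+ T cells, had 47.1 CPM against 1.74 CPM (6 UMIs), a ratio of 25.03 (12.2 to 74.5). Plet1 had 72 UMIs in cluster 0 and 0 in cluster 1, at least 17.9-fold higher (a floor of 3 counts over the group). Fcrls, a scavenger receptor of the Fc receptor-like family, had 74.3 against 4.06 CPM (17.7, 10.8 to 33.8), and Gfra2, a receptor for neurturin, had 87.4 against 4.93 CPM (17.3, 10.9 to 30.8). Il1rl1, which encodes ST2, the receptor for the type 2 alarmin IL-33, had 82.3 against 6.96 CPM (11.6, 7.82 to 18.7). Itgae, the gene of CD103, had 20.1 against 1.16 CPM (15.5, 6.54 to 64.9), and Cd63, a tetraspanin of late endosomes, 43.6 against 3.19 CPM (13.1, 7.48 to 27.8). The Cd63 UMIs of cluster 0 were in 40 cells. The other 8 of the 15 highest were F2rl2, Cd200r3, Sept3, Ccdc170, Pianp, Hr, Cd209c and F7, with ratios from 8.96 (F7) to 18.6 (F2rl2, 3 UMIs in cluster 1, 7.15 to 107).

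Monocyte markers were among the 15 genes lowest in cluster 0 against cluster 1. At least 2-fold lower were 2 of 5 classical and 4 of 8 non-classical monocyte markers compared, beside 1.95% of all genes. Of the non-classical markers, 1 (Cd36) was at least 2-fold higher. Cx3cr1, the fractalkine receptor of patrolling monocytes, had 4.10 CPM against 56.0 CPM, a CPM ratio of 0.0750 (0.0432 to 0.118). Ace, angiotensin-converting enzyme and a marker of non-classical monocytes, had 3.24 against 45.8 CPM (0.0728, 0.0386 to 0.120). Plac8, abundant in monocytes, had 555 against 3440 CPM (0.161, 0.155 to 0.168), and Chil3, a chitinase-like protein of monocytes and macrophages, 14.03 against 73.4 CPM (0.192, 0.143 to 0.252). The complement genes C3 and C3ar1 had ratios of 0.145 (0.0775 to 0.244) and 0.206 (0.0926 to 0.396). Nxpe4 was lowest at 0.0569 (0.0277 to 0.0984), and F11r, Scel, Ly6a, Mgst1, Tnfaip2, Gm9733, Abi3 and Lair1 lay between 0.0681 (F11r) and 0.210 (Lair1).

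Against cluster 3, 57 of 8307 genes (0.686%) were at least 2-fold higher in cluster 0 and 109 (1.31%) at least 2-fold lower. Cd63 led the higher genes with 43.6 against 2.36 CPM (17.5, 9.22 to 43.5), followed by F7, coagulation factor VII, with 32.4 against 1.77 CPM (16.98, 8.23 to 50.7). Both came from a minority of the 668 cells. Cd63 UMIs were in 40 cells, with 33 of 202 in 1 cell, and F7 UMIs in 59 cells, with 16 of 150 in 1 cell. F10, coagulation factor X, stood at 80.3 against 18.5 CPM (4.30, 3.31 to 5.75). Fcrls was 10.3 times higher (6.95 to 16.6) and the matrix protein fibronectin, Fn1, 6.91 times higher (125 against 18.0 CPM, 5.34 to 9.22). Fn1 UMIs were in 114 cells of cluster 0, with up to 52 in 1 cell. Cd36, a receptor for fatty acids and oxidized lipoproteins, had 79.4 against 16.2 CPM (4.87, 3.69 to 6.64), and Axl, a receptor for dying cells, 39.3 against 9.13 CPM (4.25, 2.93 to 6.52). The remaining 8 of the 15 highest, Ephx1, C1qb, Lag3, Nrp2, Pla2g7, Vdr, Cd200r3 and Galnt3, had ratios from 3.53 (Galnt3) to 5.48 (Ephx1).

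Markers of DC progenitors were among the lowest genes in cluster 0 against cluster 3. Flt3, the growth factor receptor of DC progenitors and classical DCs, had 6.69 against 44.5 CPM (0.152, 0.0988 to 0.223). Cd7 had 5.61 against 43.0 CPM (0.133, 0.0825 to 0.199), and Ltb, lymphotoxin beta, 11.7 against 65.7 CPM (0.179, 0.129 to 0.240). Ptgs2, the inducible cyclooxygenase, had 2.37 against 18.5 CPM (0.133, 0.0608 to 0.245). Ctnnd2 was lowest at 0.107 (0.0417 to 0.213). Tbc1d10c, Ifitm1, Rgs1, Plk3, Emp1, Gadd45b, Hsd17b7, Kif23 and Immp2l lay between 0.219 and 0.288. Immediate early and heat shock genes, which tissue dissociation is known to induce, were also lower in cluster 0: of the 12 genes of that list, 7 were at least 2-fold lower, with Fos at 83.8 against 263 CPM (0.318, 0.281 to 0.358) and Hspa1a at 28.5 against 95.1 CPM (0.300, 0.243 to 0.368). The share lower over all genes was 1.31%. The part of dissociation in the other differences from cluster 3 was not tested.

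**Figure D3:**
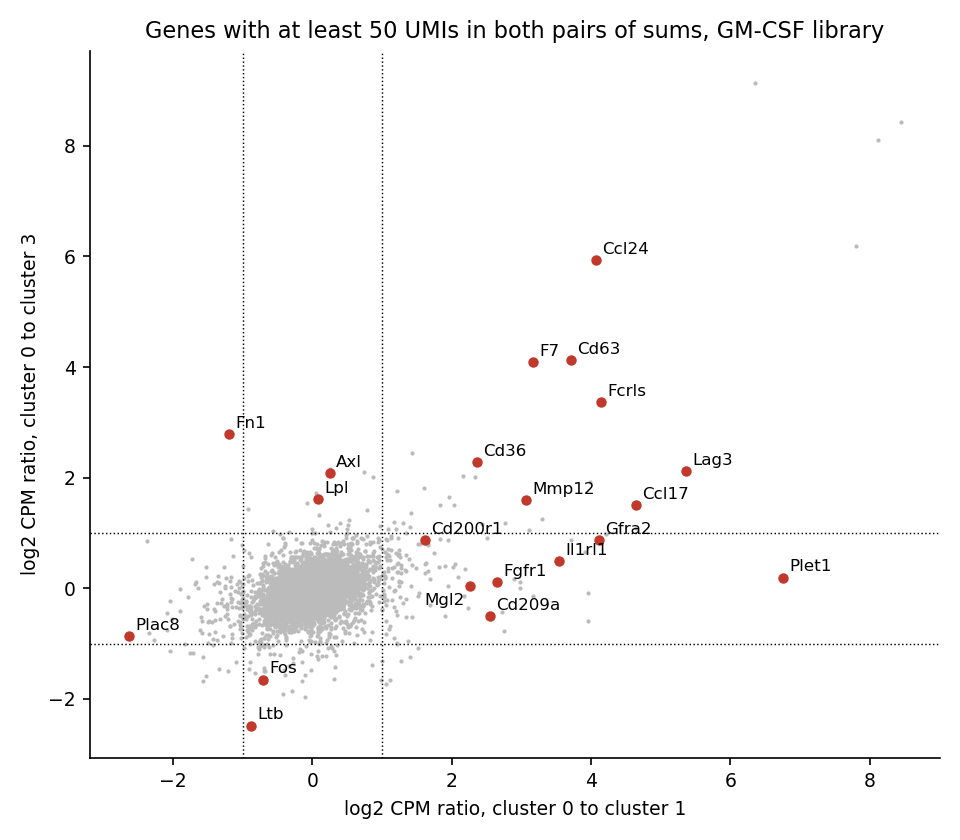
Log2 CPM ratio of cluster 0 to cluster 1 (x axis) and to cluster 3 (y axis) for genes with at least 50 UMIs in both pairs of sums, GM-CSF-treated cells; dotted lines mark 2-fold, and the 4 unlabelled grey points at the top right are haemoglobin genes of 1 cell. Mgl2, Cd209a, Fgfr1 and Plet1 lie to the right near the horizontal zero, shared with cluster 3, whereas Fcrls, Cd63, F7, Mmp12 and Ccl17 lie above 2-fold on both axes and Fn1 falls below it on x and above it on y.

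The comparisons with clusters 1 and 3 share the cells of cluster 0, so their values are set side by side here and no overlap is drawn from them. Cd36 had ratios of 5.13 to cluster 1 (3.87 to 7.03) and 4.87 to cluster 3, and Fcrls of 17.7 and 10.3. Lag3 had 29.8 CPM in cluster 0, 0.580 CPM in cluster 1 (2 UMIs, 41.2, 13.95 to 428) and 6.77 CPM in cluster 3 (4.32, 2.82 to 7.17). These genes stood higher in cluster 0 than in either neighbour. Fn1 stood lower than in cluster 1 (286 CPM, 0.437, 0.393 to 0.484) and higher than in cluster 3. The heat shock gene Hspa1a ran the other way, at 2.08 times cluster 1 (1.49 to 2.98) and 0.300 times cluster 3. Levels of Fn1 and Hspa1a in cluster 0 thus lay between those of its neighbours.

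Set against whichever other cluster was highest, 11 of 7171 genes with at least 50 UMIs in cluster 0 (0.153%) were at least 2-fold higher, and 4 of the 11 were the haemoglobin genes of 1 cell. The remaining 7 were Ccl17 (2.84 times cluster 3, 2.12 to 3.90), Cd200r3 (2.52 times cluster 11, which had 3 UMIs, 0.962 to 14.5), Fcrls (2.51 times cluster 8, 2.02 to 3.15), Lag3 (2.48 times cluster 10, 1.14 to 8.49), Nrp2 (2.16 times cluster 10, 1.43 to 3.6), Phlda1 (2.15 times cluster 11, which had 3 UMIs, 0.813 to 12.4) and Blnk (2.08 times cluster 10, 1.33 to 3.63). Lag3 encodes an inhibitory receptor for MHC class II, Nrp2 a co-receptor for semaphorins and VEGF, and Blnk an adaptor of B cell receptor signalling. Just short of 2-fold were Synpo (1.99), Mmp12 (1.99), Slc27a3 (1.98) and F2rl2 (1.97), followed by Daglb, Cgnl1, Cd6 and Mras (1.84 to 1.89). Ccl17 UMIs were in 15.9% of the cells of cluster 0, 7.81% of cluster 3 and 0.112% of neutrophils, with up to 22 UMIs in 1 cell. In all, 362 of the 7171 genes (5.05%) had their highest level in cluster 0, and for 117 of them the second highest was cluster 3.

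**Figure D4:**
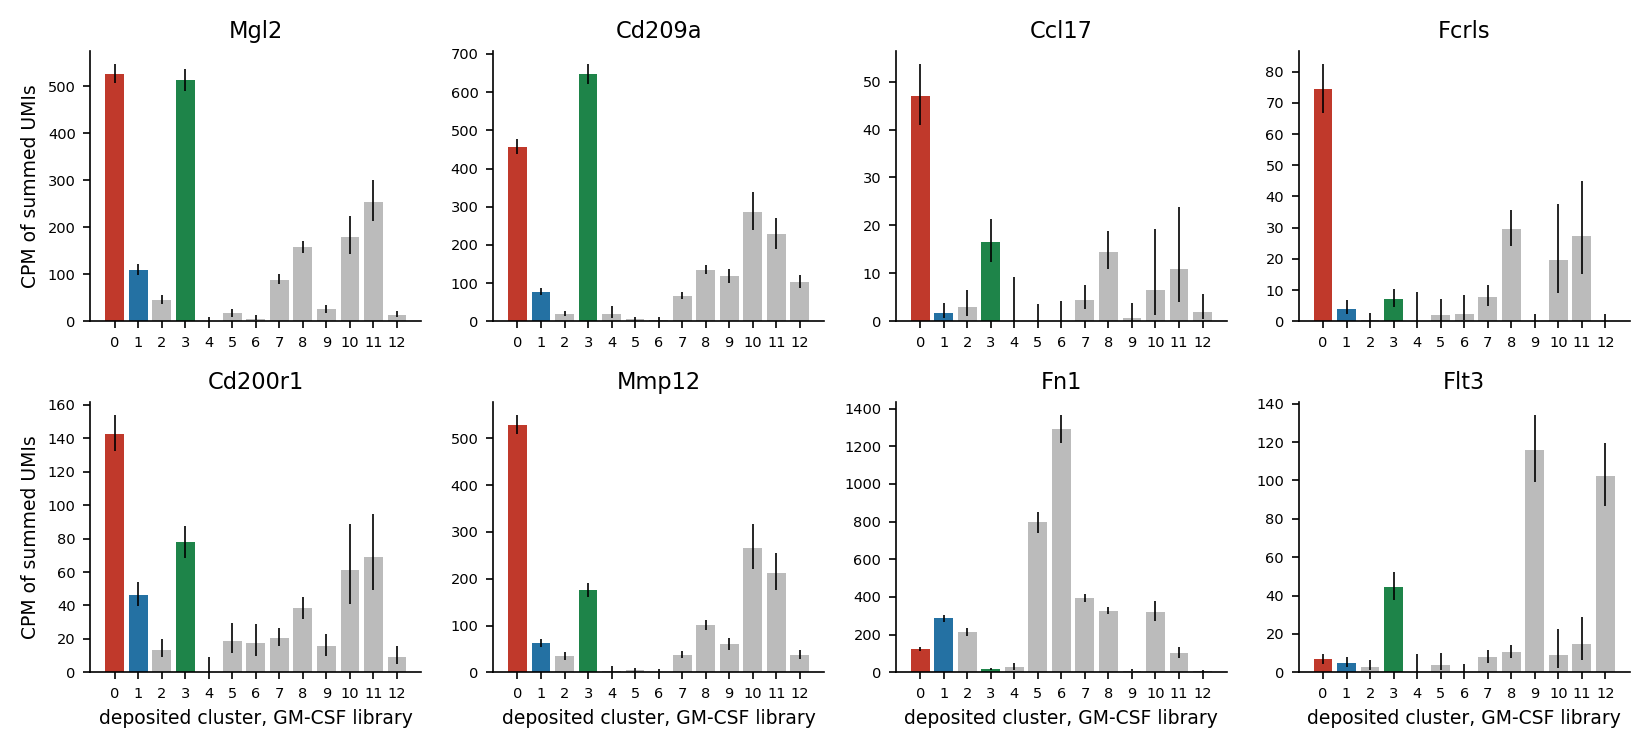
CPM of summed UMIs of 8 genes in the 13 clusters of at least 50 GM-CSF-treated cells, with exact 95% intervals (counting error only); red is cluster 0, blue cluster 1 and green cluster 3. Mgl2 was shared by clusters 0 and 3 (527 and 513 CPM), Ccl17, Fcrls, Cd200r1 and Mmp12 were highest in cluster 0, Fn1 was highest in cluster 6 and Flt3 in cluster 9.

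Among 14 C-type lectin genes with enough UMIs, 7 were at least 2-fold higher than in cluster 1 and 3 lower, beside 1.93% higher and 1.95% lower of all genes. Their median log2 ratio was 0.65, beside -0.0046 over all genes tested. The higher ones were Mgl2, Cd209a, Cd209b, Cd209c, Cd209d, Clec4b1 and Clec9a, and the lower ones were Clec4a1, Clec12a and Mrc1, the mannose receptor. Against cluster 3, 1 lectin (Clec9a, 8.85 against 3.83 CPM) was higher and 0 lower, beside 0.686% higher and 1.31% lower of all genes. Clec10a, which encodes the close relative CD301a, had 156, 169 and 226 CPM in clusters 0, 1 and 3, so it did not follow Mgl2. Clec4b1 was highest in cluster 0 of all 13 clusters at 203 CPM (143 CPM in cluster 3). Mgl2 and Clec10a, and the members of the Cd209 family, are similar in sequence, and reads that fit more than 1 of them may be lost or shared.

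Of 11 genes of type 2 immunity that could be compared, 4 were at least 2-fold higher than in cluster 1 (Il1rl1, Ccl17, Ccl24, Cd200r1) and 1 lower (Chil3), beside 1.93% higher and 1.95% lower of all genes. The median log2 ratio of the list was 0.02, near the -0.0046 of all genes. Ccl17 and Ccl24 were higher than in cluster 3. Ccl24, an eosinophil attractant, had 124 UMIs in cluster 0 (26.8 CPM), 5 in cluster 1 (16.9, 7.70 to 57.9) and 1 in cluster 3 (60.9, 16.02 to 3620). Of its 124 UMIs, 91 (73.4%) were in 1 cell and the rest in 7 others, and 114 lay in the band of cells with the least CD301b tag and 0 in that with the most. Cd200r1, an inhibitory receptor, had 143 CPM in cluster 0 against 46.4 and 77.7 CPM in clusters 1 and 3. Crlf2, the receptor for TSLP, had 122, 86.4 and 121 CPM, and Irf4, a factor needed for many CD11b+ DCs, 51.6, 50.7 and 64.5 CPM. Of genes used to mark alternatively activated macrophages, Retnla had 4 UMIs and Arg1 0 UMIs in cluster 0, while Chil3 stood at 14.03 CPM and Mrc1 at 23.3 CPM.

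MHC class II presentation genes were close to cluster 3 and somewhat above cluster 1. H2-DMb2, part of the peptide loader, was the 1 of 13 genes at least 2-fold higher than in cluster 1 (213 against 73.4 CPM, 2.90, 2.53 to 3.35), and H2-Oa was the 1 lower than in cluster 3 (28.9 against 76.0 CPM, 0.382, 0.307 to 0.471). The shares over all genes were 1.93% higher than in cluster 1 and 1.31% lower than in cluster 3. H2-Ab1 had 6580, 4660 and 6680 CPM in clusters 0, 1 and 3, and Cd74, the invariant chain, 11776, 9719 and 12362 CPM. Of the genes of costimulation and DC maturation, 1 of 7 was higher than in cluster 1 (Cd200r1) and 1 of 9 lower than in cluster 3 (Cd40, 6.26 against 14.4 CPM). Cd86 had 53.8, 34.5 and 53.6 CPM, and Ccr7 and Fscn1, which mark DCs that have matured and migrate, had 0 UMIs in cluster 0.

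Of 9 receptor and feedback genes of GM-CSF signalling none was 2-fold different from cluster 1 and 1 (Socs3, 20.9 against 58.9 CPM) was lower than in cluster 3. Csf2ra, the alpha chain of the receptor, was highest in cluster 0 of the 13 clusters at 262 CPM, against 172 and 229 CPM in clusters 1 and 3, while Csf2rb stood at 260, 250 and 248 CPM. Stat5a had 53.8, 49.0 and 51.2 CPM. Of 14 transcription factor genes of DCs, Zbtb46, which marks classical DCs and some monocyte-derived DCs, was the 1 higher than in cluster 1 (40.2 against 17.7 CPM, 2.26, 1.69 to 3.08), and none was 2-fold different from cluster 3. Zbtb46 stood at 50.9 CPM in cluster 3 and 61.9 CPM in cluster 9. Over all genes, 1.93% were at least 2-fold higher than in cluster 1 and 1.31% lower than in cluster 3.

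Matrix and lipid genes described cluster 0 further. Mmp12, macrophage elastase, had 530 CPM in cluster 0, 63.2 CPM in cluster 1 (8.36, 7.29 to 9.67) and 176 CPM in cluster 3 (3.01, 2.75 to 3.30). Lpl, lipoprotein lipase, had 217, 205 and 70.7 CPM, so it was shared with cluster 1 rather than with cluster 3. Of 32 genes that the study named for P-IV cells, 19 were at least 2-fold higher than in cluster 1 and 2 (Mmp12, Slc27a3) higher than in cluster 3, with median log2 ratios of 1.10 and 0.18. The shares higher over all genes were 1.93% and 0.686%. The list of 32 genes was chosen by the study on these cells and is no independent evidence. Fgfr1, a fibroblast growth factor receptor on the list, had 294, 46.7 and 272 CPM.

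Markers of other cell types were low in cluster 0 with exceptions. All 6 markers of mast cells and basophils and 6 of the 7 of NK cells had 0 UMIs, and 5 B cell markers summed to 8 UMIs. The remaining NK cell marker, Klre1, had 23 UMIs. Of the cDC2 list, Esam, Dtx1 and Clec4a4 had 0 UMIs and Cd4 had 2, and 84.0% of the list's UMIs came from the broadly expressed Rbpj. Against cluster 3, 4 of 5 cDC2 markers compared were at least 2-fold lower (Flt3, Cd7, Ffar2, Dnase1l3), and so were 4 of 6 markers of DC progenitors (Flt3, Tbc1d4, Asb2, Ltb). The share lower over all genes was 1.31%. The macrophage list summed to 260 CPM in cluster 0, with Adgre1 (F4/80) at 139 CPM and Siglec1 at 0, beside 25100 CPM in the cells deposited as macrophages. Of its 4 genes compared with cluster 3, C1qb, Hmox1 and Axl were at least 2-fold higher, beside 0.686% of all genes. Classical monocyte markers summed to 2017 CPM, of which Lyz2 made up 67.5%, against 5468 CPM in cluster 1, and Ly6c2 had 8 UMIs. Neutrophil markers summed to 276 CPM in cluster 0 and 216 to 33180 CPM in the other clusters. T cell markers summed to 5.397 CPM, with Cd3e, Cd3g and Cd8a at 0 and 84% of the sum from Il7r. Of 6 markers of plasmacytoid DCs, 4 had 0 UMIs, while Pld4 stood at 372 CPM and made up 99.9% of the list's UMIs. Among cDC1 markers Xcr1 had 4 UMIs while Naaa stood at 884 CPM.

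Within cluster 0 the CD301b tag gave an ordering that the clustering had not used, and the 4 bands of near equal size were defined after the data had been seen. Mgl2 stood at 189 CPM (164 to 216) in the band with up to 64 tag counts, at 434 CPM with 65 to 187, at 654 CPM with 188 to 454 and at 793 CPM (744 to 844) with 456 or more. The share of cells with a Mgl2 UMI was 44.0%, 84.5%, 95.2% and 97.0% in that order, with median depths of 6744 to 7251 UMIs in the lowest and highest band. Gene and tag of CD301b thus rose together from band to band. Cd209a stood at 266, 426, 446 and 663 CPM. Clec10a ran the other way, from 220 CPM in the lowest band to 136 CPM in the highest. Cells with the P-IV gate made up 7.74% of the lowest and 39.5% of the highest band, as CD301b is part of that gate.

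Of 5324 genes with at least 50 UMIs, 23 (0.432%) were at least 2-fold higher in the highest than in the lowest CD301b band and 37 (0.695%) lower. Besides Mgl2 (4.19, 3.61 to 4.90) the higher genes included 4 members of the Cd209 family: Cd209b (48.7 against 7.29 CPM, 6.34, 3.18 to 16.2), Cd209d (4.45, 2.51 to 9.06), Cd209c (4.14, 2.22 to 9.11) and Cd209a (2.49, 2.18 to 2.86). Epcam, an epithelial adhesion molecule also found on Langerhans cells, stood at 61.7 against 21.0 CPM (2.90, 1.83 to 4.92), and Tcea3, Sept3, Stmn1 and Aacs had ratios from 2.33 to 4.19. Some genes of monocytes and macrophages were among the lower ones. Cd63 stood at 7.31 against 100.3 CPM (0.0766, 0.0325 to 0.143), Lpl at 75.5 against 429 CPM (0.177, 0.139 to 0.220) and Hmox1, haem oxygenase, at 24.4 against 118 CPM (0.210, 0.134 to 0.310). Plac8 stood at 277 against 950 CPM (0.292, 0.257 to 0.330), and Cebpb, a monocyte transcription factor, at 43.9 against 123 CPM (0.358, 0.255 to 0.492). Gngt2, 6430548M08Rik, Spn, Kin and Fabp5 lay between 0.206 and 0.366. Some of these UMIs were concentrated in single cells. Over cluster 0, 1 cell held 117 of 628 Fabp5 UMIs and 1 cell 45 of 231 Hmox1 UMIs. In the lowest band 1 cell held 77 of 471 Lpl UMIs. Cd63, highest ranked against cluster 3, was therefore concentrated in the cells of cluster 0 with the least CD301b.

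**Figure D5:**
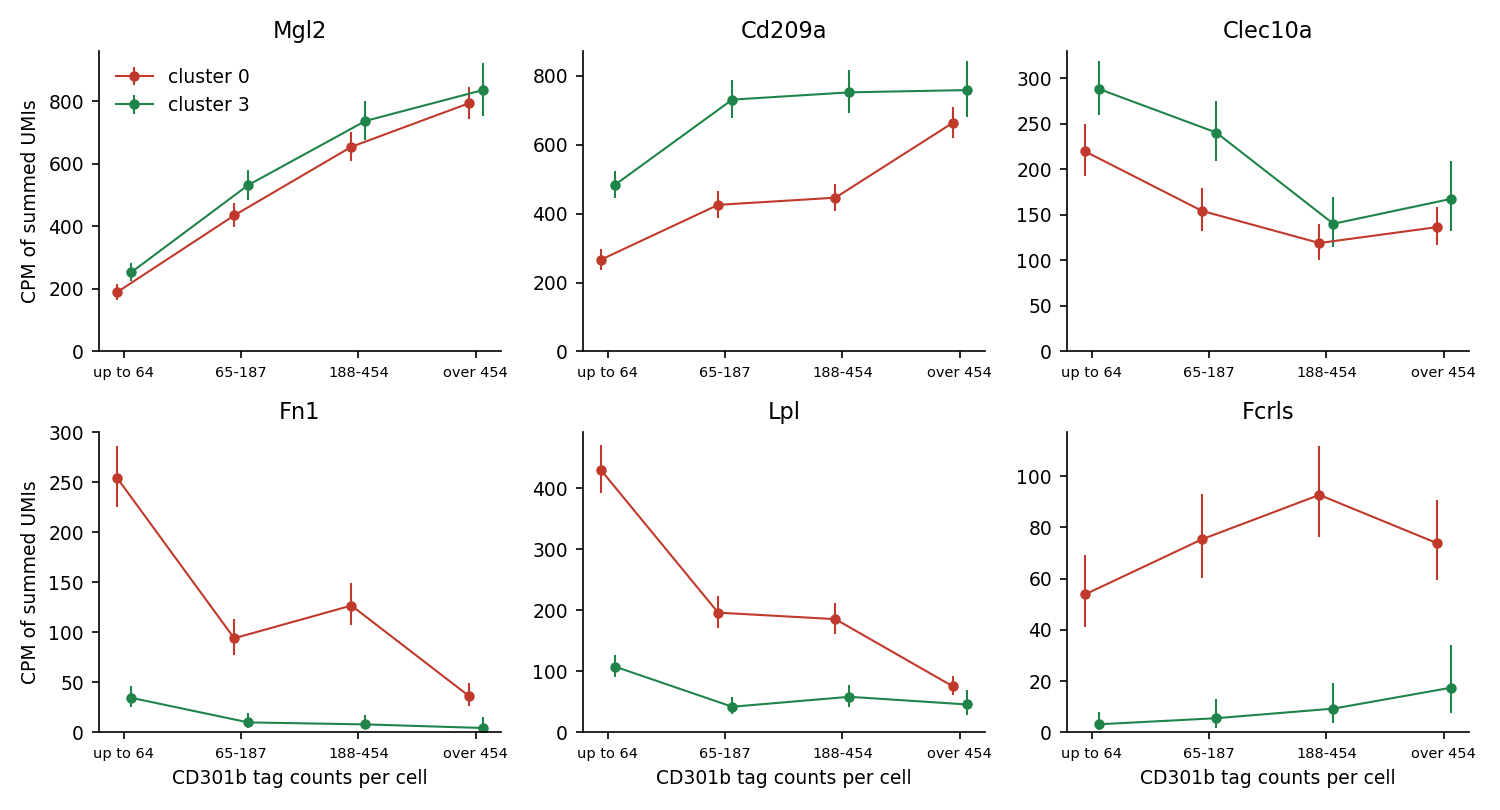
CPM of summed UMIs of 6 genes in the cells of cluster 0 (red) and cluster 3 (green), GM-CSF-treated, in 4 bands of CD301b tag counts per cell that are near equal parts of cluster 0; bars are exact 95% intervals (counting error only). Mgl2 rose with the tag in both clusters, from 189 to 793 CPM in cluster 0 and from 252 to 835 CPM in cluster 3, whereas Fn1 and Lpl were lowest in the highest band of cluster 0 and Fcrls stayed above cluster 3 in each band.

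Clusters 0 and 3 were also compared at matched CD301b tag. In the 4 bands Mgl2 stood at 252, 532, 736 and 835 CPM in cluster 3, above cluster 0 in each. The intervals of clusters 3 and 0 were apart in the lowest band (225 to 281 against 164 to 216) and the next (485 to 581 against 397 to 475). In the higher bands they overlapped, and in all bands they leave out the spread between cells. Fcrls was 53.8 to 92.7 CPM in the bands of cluster 0 and 3.14 to 17.4 CPM in those of cluster 3, and Flt3 was 5.95 to 7.31 CPM against 32.2 to 66.1 CPM. Fn1 fell from 254 CPM in the lowest band of cluster 0 to 36.5 CPM in the highest, where 27 of its 45 UMIs were in 1 cell. Among cells with at least 100 CD301b counts (450 of cluster 0, 265 of cluster 3, a limit set after the data had been seen), Mgl2 had a ratio of 0.928 (0.865 to 0.996), Cd209a 0.698, Ccl17 2.35 (1.67 to 3.45), Fcrls 7.33 (4.76 to 12.5) and Flt3 0.126 (0.0719 to 0.201). Fn1 moved from 6.91 to 15.6 (8.55 to 36.4) and Clec9a from 2.25 to 1.53 (0.793 to 3.35), and 54 genes were at least 2-fold higher and 82 lower, against 57 and 109 in all cells.

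The CD115 tag was divided in the same way, in 4 bands of near equal size defined after the data had been seen. Of 5318 genes, 20 (0.376%) were at least 2-fold higher in the highest than in the lowest CD115 band and 26 (0.489%) lower. Fn1 led the higher genes with 235 against 55.2 CPM (4.24, 3.24 to 5.69). Immediate early genes were the 3 lowest: Egr1 stood at 22.7 against 154 CPM (0.150, 0.0939 to 0.223), Fosb at 21.8 against 120 CPM (0.185, 0.114 to 0.280) and Fos at 40.1 against 139 CPM (0.290, 0.203 to 0.402). Jun, Ier3, Nr4a1, Nfkbiz, Hspa1a, Cxcl2 and Asgr2 had ratios from 0.327 (Ier3) to 0.440 (Jun). Mgl2 (0.939, 0.838 to 1.05), Cd209a (0.977, 0.865 to 1.10) and Csf1r (1.15, 0.958 to 1.39) stayed within 1.5-fold. Along the MHC class II tag, Ccl17 stood at 87.8 CPM in the highest and 32.2 CPM in the lowest band (2.70, 1.86 to 4.10), Lpl at 454 and 133 CPM (3.40, 2.84 to 4.11) and Fcrls at 52.4 and 98.3 CPM (0.534, 0.386 to 0.730). Fn1 thus changed with both the CD301b and the CD115 tag, in opposite directions, and Lpl with both the CD301b and the MHC class II tag. Genes were not counted over the whole table along the MHC class II tag.

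Between P-IV and CD115- cells of cluster 0, 17 of 7104 genes (0.239%) were at least 2-fold higher in P-IV cells and 38 (0.535%) lower, a split also chosen after the data had been seen. The higher genes had few UMIs, led by Usp40 (36 against 40 UMIs, CPM ratio 2.53, 1.56 to 4.06) and Parn (2.43, 1.36 to 4.28). The lower genes were led by Egr1 with 19.4 against 92.5 CPM (0.214, 0.131 to 0.321) and included Fosb (0.363, 0.238 to 0.521) and the cytokine gene Il1b (0.385, 0.170 to 0.717).

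P-IV cells of cluster 0 (167 cells) were also compared with the 146 P-IV cells of other clusters, which met the same tag gate. Of 5415 genes, 52 (0.96%) were at least 2-fold higher in cluster 0 and 226 (4.17%) lower. Among the lower genes were those of cell division, and 52.7% of the P-IV cells elsewhere were deposited in S or G2/M phase against 12.0% in cluster 0. Birc5, a component of the chromosomal passenger complex, had 0 UMIs in the P-IV cells of cluster 0 and 289 elsewhere, at least 107-fold lower. The next were Nusap1, Cenpf, Ccnb2, Ccna2, Cenpm, Cit, Clspn and Esco2, all at 0 UMIs in cluster 0, and 2810417H13Rik at 4 against 474 UMIs. Of the 17 proliferation genes, 16 were at least 2-fold lower. Higher in cluster 0 were Cd63 (12.5, 5.18 to 52.8), F7 (6.72, 3.08 to 20.6), Cd36 (86.2 against 24.4 CPM, 3.48, 2.28 to 5.66), Ccl17 (60.8 against 21.6 CPM, 2.78, 1.74 to 4.72) and Mmp12 (521 against 189 CPM, 2.75, 2.35 to 3.25), with Hepacam2, Stx6, Cd209c, Klrb1b and Hr between 2.73 and 4.31. Mgl2 stood at 591 against 295 CPM (2.002, 1.75 to 2.30) in these P-IV cells with the same gate. Both groups were split by RNA cluster, so this difference describes how the clusters were drawn.

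Because phase differed, the comparison was repeated, after the data had been seen, on the P-IV cells in G1, 147 in cluster 0 and 69 elsewhere. Of 4039 genes, 55 (1.36%) were at least 2-fold higher in cluster 0 and 43 (1.06%) lower. Mmp12 was 3.45 times higher (2.67 to 4.59), Cd36 7.59 times (3.20 to 31.8) and Mgl2 1.78 times (1.48 to 2.17). Hepacam2 (9.54, 3.14 to 99.8, 2 UMIs elsewhere), Hr and Gfra2 were also among the highest, with Tnfsf12, Pianp, Tmem238, Secisbp2l and Cep83 between 2.77 and 3.08. Lower were Plac8 (440 against 1906 CPM, 0.231, 0.205 to 0.259) and interferon-inducible genes, Ifi204 (0.237, 0.143 to 0.382), Isg15 (0.276, 0.153 to 0.483), Slfn5 (0.292, 0.173 to 0.485) and Ifi47 (0.294, 0.162 to 0.521), as well as Ifitm6, Rasa4, Nrp1, Zfos1 and Letm1 (0.311 to 0.381).

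By the deposited phase 13.8% of the cells of cluster 0 were in S or G2/M (11.2 to 16.6%), with 88 in S and 4 in G2/M, against 19.1% in cluster 1, 9.18% in cluster 3 and 100% in clusters 8 and 12. Scored again at 1000 UMIs per cell the shares were 22.6%, 24.1% and 25% in clusters 0, 1 and 3, so the order of these 3 was not kept. Mki67, a marker of dividing cells, had 30 UMIs in cluster 0 (6.48 CPM) against 852 CPM in cluster 8. Within cluster 0, cells in S or G2/M had less Mmp12 (331 against 560 CPM, 0.593, 0.510 to 0.684), Lpl (0.380, 0.281 to 0.496) and Fcrls (0.484, 0.297 to 0.725) than cells in G1, and their Mgl2 level was 0.874 of that in G1 (0.768 to 0.988).

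On 50 principal components of 2000 variable genes, 78.2% of the 15 nearest neighbours of the cells of cluster 0 were in cluster 0 itself, 12.9% in cluster 3 and 8.24% in cluster 1. From the other side, 27.7% of the neighbours of cluster 3 cells and 11.3% of those of cluster 1 cells were in cluster 0, which held 16.95% of the library's bundle cells. Cluster 3 was thus the nearest cluster by RNA, and the border between them was less sharp than that with cluster 1.

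The 14 steady-state members did not carry the CD301b-rich label. Their CD301b tag had a median of 3 counts (0 to 275), and 3 of the 14 cells passed 11 counts, with 275, 67 and 50. The CD115 tag had a median of 11, CD11c of 83, MHC class II of 530 and Ly6C of 138 (23 to 549), against 57, 263, 399.5 and 15 after GM-CSF. By gate, 12 were CD115-, 2 were CD115hi outside the named gates and 0 were P-IV. Mgl2 UMIs were found in 3 of 14 cells, the same 3 with the most CD301b tag, and Cd209a UMIs in 13 of 14. The steady-state members thus had Cd209a RNA without CD301b in most cells, and they came from a library in which granulocytes also had lower CD115 and CD301b tags (medians of 2 and 2 against 4 and 4) and more Ly6C tag (176 against 82).

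With 133356 UMIs in 14 cells, a gene at 0 in the steady-state members could stand at up to 22.5 CPM (3 counts). Of 7238 genes, 1048 (14.5%) were at least 2-fold higher after GM-CSF and 753 (10.4%) lower, and 269 of the higher and 65 of the lower had over 50% of the UMIs of either group in 1 cell. The 10 highest ranked all had 0 UMIs in steady state: Fgfr1 (294 CPM, at least 13.1-fold higher), Rasgrp1, Hist1h2bc, Bhlhe40, Htra3, Blnk, Il1rl1 (82.3 CPM, at least 3.66-fold), F10, Eva1b and Gbp7 (at least 3.37-fold). Mmp12 stood at 530 against 67.5 CPM (7.44, 4.13 to 17.2). Lowest after GM-CSF were Flt3 with 6.69 against 157 CPM (0.0422, 0.0237 to 0.0778), Hpgd (0.0467), Mcemp1 (0.0572), Mef2c (0.0659) and the cyclin gene Ccnd1 (0.0869), then Hspa1b, Lst1, Ly6e, Irf7 and Ifitm6 (0.0959 to 0.114). Cd209a stood at 456 against 1215 CPM (0.375, 0.320 to 0.444) and Mgl2 at 527 against 270 CPM (1.93, 1.41 to 2.79, 36 UMIs from 3 cells in steady state). Steady-state members of the cluster were thus rich in Flt3 and Cd209a and low in Fgfr1, Il1rl1 and Mmp12, and cell makeup, library and GM-CSF cannot be told apart here.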

How the data were processed

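CD11b+ splenocytes of 1 steady-state and 1 GM-CSF-treated library were measured by CITE-seq, RNA and 5 antibody tags. The deposited RNA and tag matrices hold raw counts, which the authors made with Cell Ranger 3.0.2 on mm10 and CITE-seq-Count, with limits of 200 and 5000 genes and 15% mitochondrial UMIs per cell. The mitochondrial percent, the S and G2/M score, the phase, the clusters (after anchor integration of the libraries in Seurat) and the tag gates are as the authors deposited them.

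Here the raw UMIs of each gene were added up within a group of cells and scaled to the group's total (CPM). Ratios had 0.5 counts added to each sum and an exact binomial interval, and sums and shares had exact Poisson and Clopper-Pearson 95% intervals. A gene was counted as higher or lower at 2-fold or more with at least 50 UMIs over both sums. Thinning drew 1000 UMIs per cell (seed 20). Ratio and rule were tested on data simulated with counting error alone, which cannot show how they hold where cells differ. Doublets were called per library with Scrublet and kept. Python 3.11.15, numpy 2.4.6, scipy 1.17.1, pandas 2.3.3, scanpy 1.11.5, matplotlib 3.10.9 and scikit-learn 1.9.0 served for this.

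Cells, markers and gene lists were chosen with earlier results of these data known. Named are the markers, the 15 highest and lowest ratios against clusters 1 and 3, the 15 highest against the highest other cluster, the 10 highest and lowest in the other comparisons, and list members. Clec6a, Clec7a, Ly6a2, Ighd, Ighm and Trbc2 were not analysed here, and 1 gene that the rule names is not reported here. Alternatives covered pseudocount, UMI minimum, fold, depth, phase, doublets, tag scaling, weighting and neighbours.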

Additional observations from a re-analysis of the deposited data

How the results depend on the processing

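Of 144 alternatives over 29 results, 91 left the value within its spread or the count within 1.5 times, 48 moved it and 5 turned its direction. No paired analysis was possible because each condition had 1 library and no test was made. Counts of genes moved by construction where fewer UMIs, genes or a different fold were asked. Some of the unchanged results could not change. The centred log ratio keeps the order of cells within a tag, so all its pair shares were identical. Clusters 0 and 3 held no called doublets, so leaving doublets out could not alter values drawn from these cells alone. The number of unchanged results is therefore no measure of robustness. Against cluster 1, 160 higher and 162 lower genes became 286 and 252 at 20 UMIs, 439 and 473 at 1.5-fold, 65 and 43 at 3-fold and 51 and 57 at 1000 UMIs per cell, and the lower genes numbered 100 at 100 UMIs. Against cluster 3, 57 and 109 became 154 and 205 at 20 UMIs, 32 and 64 at 100 UMIs, 229 and 398 at 1.5-fold, 25 and 29 at 3-fold and 25 and 44 after thinning. Against the highest other cluster, 11 became 34 at 1.5-fold, 4 at 3-fold, 2 after thinning, 30 against clusters 1 and 3 alone and, chosen after seeing the data, 7 without the cell with most haemoglobin. Between GM-CSF-treated and steady-state members, the 1048 higher genes became 652 with 1 count added, 1731 at 1.5-fold, 607 at 3-fold and 507 after thinning, and the 753 lower ones 1326 at 20 UMIs, 384 at 100 UMIs, 1625 at 1.5-fold, 186 at 3-fold and 319 after thinning. Among P-IV cells the 226 lower genes became 43 in G1.

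The share of cluster 0 was 9.82% of all CD11b+ cells, and its P-IV share 88.8% of CD115hi cells. Thinning took the cells with a Mgl2 UMI to 36.5%, with a Cd209a UMI to 32.6%, the share in S or G2/M to 22.6% and the Cd209a ratio to cluster 1 to 7.08. Among cells with at least 100 CD301b counts (chosen after seeing the data) the ratios to cluster 1 were 1.37 for Mgl2 and 3.36 for Cd209a, with 41 cells in cluster 1 and 275 genes higher, and the Mgl2 ratio to cluster 3 turned to 0.928. As shares of the 5 tags the CD301b pair share against cluster 1 was 83.6%, and 4 turned direction: CD115 (27.5%) and MHC class II (34.5%) against cluster 1, MHC class II (36.6%) and Ly6C (41.3%) against cluster 3; the cause was not tested. With 1 library per condition, counting intervals do not hold the spread between mice.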
